A study of Drosophila melanogaster with 48 samples.

Results

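Line 380 is 1 of 8 numbered lines of Drosophila melanogaster whose adult transcripts were measured on Affymetrix expression arrays. Its 6 arrays, 2 for each larval medium, were chosen by the line number in their titles, out of 48 arrays in all. They were set against the 42 arrays of the other 7 lines, 158, 304, 362, 379, 774, 786 and 859, each with 2 arrays per medium. Larvae grew on a cornmeal-molasses standard medium, on that medium enriched with tomato paste, or on that medium containing 9% ethanol, and every group was moved to the standard medium once adult. The study linked these profiles to behavioural responses to benzaldehyde, an odorant. RNA came from whole bodies. The labels define neither the line numbers nor the sex of the flies, list no transgene or mutation for any line, and give an age, 3 to 5 days, for 4 arrays, none of them of line 380. Whether 2 arrays of a line on a medium hold RNA of separate cultures is not stated, so the p-values cover the spread between arrays and lines, part of which may be technical. P-values of the fit to all arrays treat arrays of a line largely as separate samples, though line 380 is 1 line against 7.

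Stocks of a species that are kept apart carry different alleles, and many transcripts differ in level among them. An array of a whole fly sums the RNA of all tissues, so fewer cells of a type and less RNA per cell cannot be told apart. Each gene is read by a probe set, a group of short probes, and its signal depends on the match between the probes and the line's own sequence as well as on the amount of RNA. The signals here are on a linear scale on which the trimmed mean of every array is near 500. A log2 difference of 1 is a doubling.

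The 6 arrays of line 380 held RNA of many tissues. Of 37 tissue markers with a probe set (ovary, fat body, male accessory gland, testis, midgut, muscle, eye, neurons, hemocytes and antenna), 31 lay above the array's own median signal on all 6 arrays. The 2 arrays of a medium correlated at 0.944 to 0.962 in line 380 and at 0.905 to 0.962 in the 21 pairs of the other lines. Several arrays of line 380 stood apart. The first array on standard medium had a median signal of 85.9, against 109.7 to 163.0 in the other lines, and the first tomato array (number 3 in its title) had a low mean log2 signal over 9 eggshell genes, 8.25, as did 6 arrays of other lines, which lay under 10. The first standard array and both ethanol arrays also had the lowest levels of muscle and respiratory chain transcripts of all 48 arrays, and the main counts, the genes at the extremes and the called list members are given with and without them.

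More of the transcripts that set line 380 apart were lower in it than higher. In the comparison of 6 with 42 arrays, with medium as a block and line as a random block (limma, Benjamini-Hochberg adjusted p under 0.05), 315 of 11261 tested probe sets differed, which is 2.8%. Of these, 91 were higher (0.808%) and 224 were lower (1.99%), and 176 differed by more than 1 on the log2 scale, 34 upward and 142 downward. Calls toward lower signal also outnumbered those toward higher signal in each of the other lines when it was set against the remaining 7, as in line 304 with 100 lower and 34 higher. Counted once per gene for line 380, 251 of 9419 genes differed (2.66%), 62 higher (0.658%) and 189 lower (2.01%). A stricter fit on the 8 line means, 1 line against 7, called 42 probe sets (0.373%), of which 7 were higher (0.0622%) and 35 lower (0.311%), or 36 genes (0.382%). Of these 42 probe sets, 35 were also called in the fit to all arrays. Without the first standard array the count of probe sets was 174, and with the 4 arrays of lowest muscle transcripts left out, 3 of them of line 380, it was 84, an alternative chosen after seeing the data.

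Some transcripts placed line 380 beyond every other array on all 3 media. A probe set was counted so when, on each medium, both arrays of line 380 lay above, or both lay below, all 14 arrays of the other lines. This held for 36 probe sets on the high side (0.32%) and 68 on the low side (0.604%). Counted the same way, the other lines had 3 to 31 probe sets on the high side and 29 to 59 on the low side, and line 304 came closest with 31 and 59. In each of the 8 lines more probe sets lay below all others than above them. With every array centred on its median, line 380 had 17 and 59, and 52 of the 104 probe sets were shared with those counted before. These counts are a description and were not tested.

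**Figure D1:**
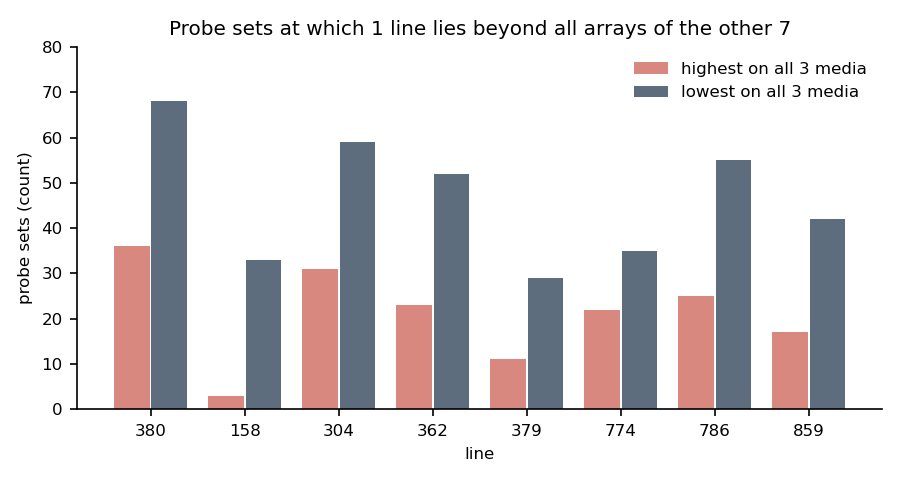
Number of probe sets (vertical axis) at which both arrays of a line lay above (pink bars) or below (grey bars) all arrays of the other 7 lines on each of the 3 media, with line 380 at the left. Line 380 has 36 and 68, and line 158 has the fewest on the high side, 3.

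The 15 genes with the largest deficits among those called and lowest on all 3 media had log2 differences of -6.69 to -2.82. In 8 of the 15, every signal of line 380 was under 100 and also below the median of its array, so the transcript was weak in this line and neither the size of the difference nor its SE is well determined. With 16 added to every signal before log2, the differences of the 15 ran from -5.68 to -2.57 and all still passed. All 15 passed the test without the 4 arrays of lowest muscle transcripts, and 13 passed it on the 8 line means, all but Drsl4 and ninaD. A deficit on tomato medium was required by the choice of these genes, and there the differences ran from -6.92 to -2.2. In the tomato arrays alone 13 of the 15 passed, all but CG6908 and ninaD. This test and those above reuse the values by which the genes were chosen, so the passes are no further support.

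Cyp6a18 and Acbp3 were among the genes with the largest deficits. Cyp6a18 encodes a cytochrome P450, a class of enzymes that oxidise fatty acids, hormones and foreign compounds. In line 380 its signals were 3.75 and 5.27 on standard, 9.20 and 2.89 on tomato and 3.74 and 9.09 on ethanol medium, while the 42 arrays of the other lines ran from 216.2 to 781.4 with a median of 411.5. The groups were far apart on every medium. The log2 difference was -6.31 with a standard error (SE) of 0.32 (limma adjusted p = 2.6e-20, and 6.4e-05 on the line means). Since the signals of line 380 are near the bottom of the scale, that size depends on how weak values are treated, and with 16 added to every signal it was -4.30 (SE 0.27). Acbp3, an acyl-CoA-binding protein, which carries activated fatty acids, gave 98.6 and 35.6 on standard, 91.4 and 40.7 on tomato and 5.49 and 11.2 on ethanol medium, against 891.5 to 7279 with a median of 2420 in the other lines. Its difference was -6.36 (SE 0.50; limma adjusted p = 8.4e-14, and 0.00061 on the line means). It was the only gene of the 30 at the extremes, beside CG2772, whose deficit varied with medium.

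CG9259 had a deficit of similar size. Its signal was 6.35 to 40.1 in line 380, with a median of 17.5, and 554.3 to 4252 in the other lines, with a median of 1929. The log2 difference was -6.69 (SE 0.42; limma adjusted p = 4.1e-17, and 0.00091 on the line means). Even line 774, the next lowest, had a mean log2 signal of 9.62, against 4.12 in line 380. CG6870 was close to constant within line 380, at 44.1 to 61.7, against 610.4 to 2433 in the other lines. CG31517 ran from 1.47 to 27.9 in line 380 and from 66.0 to 537.1 in the others, and CG2772 from 5.05 to 27.3 and from 84.3 to 649.5. All 4 were chosen for groups that do not overlap on any medium, so this separation is no further result.

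CG42540 was read by a pair of tested probe sets that disagreed. The brighter gave 2.82 to 23.2 in line 380, with a median of 5.84, against 248.6 to 900.1 in the other lines. Its log2 difference was -6.03 (SE 0.39; limma adjusted p = 1.0e-16, and 6.4e-05 on the line means). The other gave 45.4 to 182.7 in line 380 and 57.2 to 261.3 in the others, a difference of -0.01 (SE 0.33; limma adjusted p = 0.99). The deficit of this gene thus belongs to 1 of its probe sets. Of the 11 called genes with another tested probe set, 14 further probe sets were tested in all, of which 13 had the sign of the first and 2 were called. The 13 include the second probe set of CG42540, which had no difference to speak of (-0.01). Most genes named here have 1 tested probe set, so their differences have no such check.

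betaTry, Drsl4 and ninaD, genes with known roles in digestion, defence and vision, were also among the 15. betaTry, a trypsin that digests protein in the midgut, was still abundant in line 380, at 1289.9 and 3232 on standard, 1959.9 and 1753 on tomato and 2331 and 2811 on ethanol medium. The other lines had 9887 to 21113 with a median of 16020.2, so that the difference is measured well above the weak range. It was -2.89 (SE 0.17; limma adjusted p = 2.8e-18, and 6.4e-05 on the line means). Of 17 trypsins and other gut proteases tested, 2 fell and none rose, against 2.01% and 0.658% of all genes. The other was zetaTry, at -1.21 (SE 0.33; limma adjusted p = 0.029, and 0.20 on the line means). Drsl4, a member of the drosomycin family of antifungal peptides, had 142.8 to 409.2 in line 380, with a median of 259.5, and 1147 to 7799 in the others, with a median of 4548. It was the 1 of 10 antimicrobial peptide genes that passed, at -3.85 (SE 0.40; limma adjusted p = 6.0e-10). On the 8 line means its adjusted p was 0.087, where the means of the other lines spanned 2.06. ninaD, a scavenger receptor needed for the uptake of carotenoids that become the visual chromophore, had 39.3 to 250.0 in line 380 and 296.6 to 2486 in the others, a difference of -3.23 (SE 0.51; limma adjusted p = 3.3e-05, and 0.054 on the line means).

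The 4 remaining genes of the lowest 15, beside Cln7, were CG31659 at -3.60, CG3706 at -3.47, CG6908 at -3.19 and CG31205 at -2.82. CG31659 was even within both groups, at 41.2 to 81.8 in line 380 and 495.9 to 1040 in the other lines. All 4 passed both fits.

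**Figure D2:**
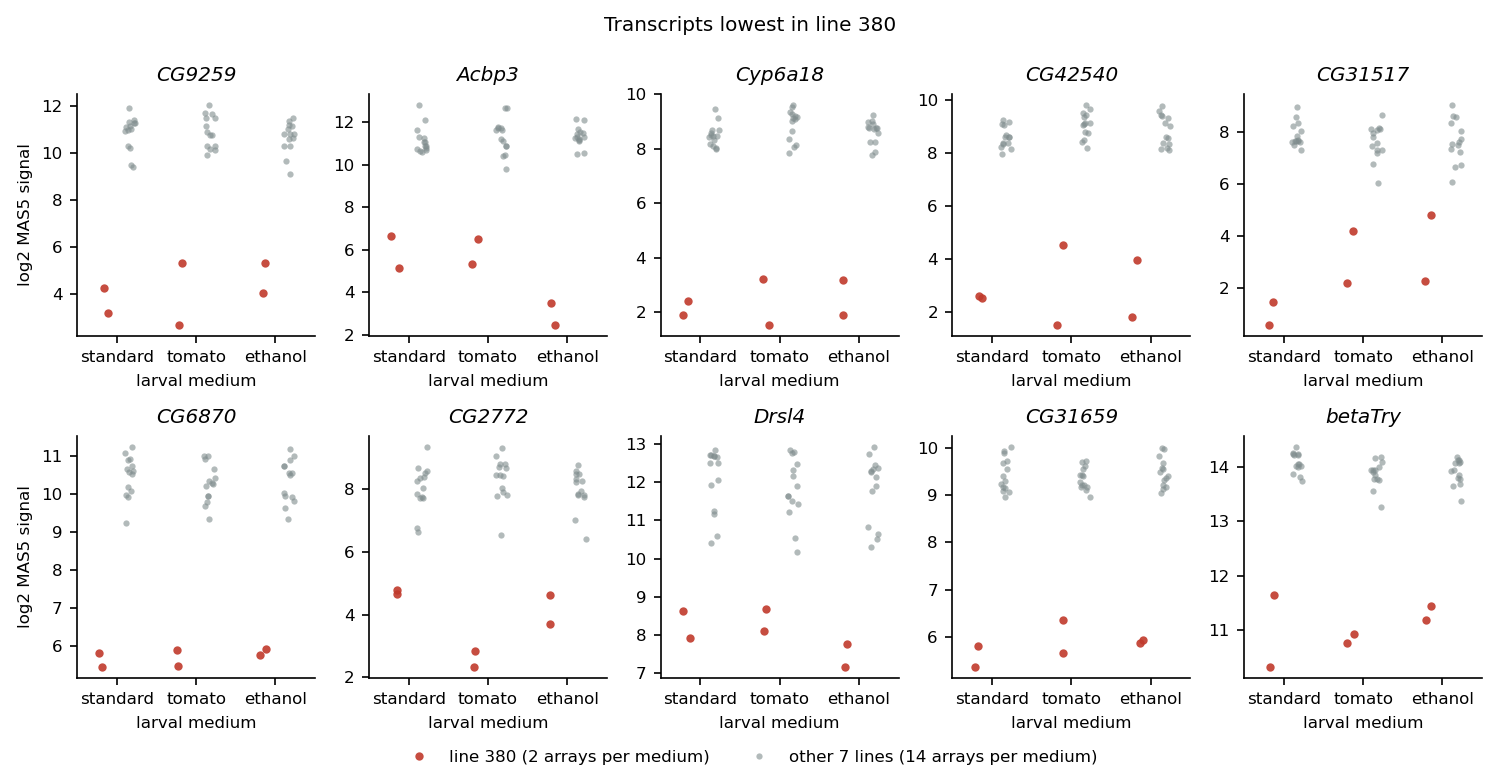
Log2 MAS5 signal (vertical axis) of 10 transcripts lowest in line 380 on each larval medium, with the 2 arrays of line 380 in red at the left and the 14 arrays of the other 7 lines in grey at the right of each medium. In every panel the red points lie below all grey points, which the choice of genes required on each medium. For betaTry they still lie above 10 on the log2 scale.

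Genes of the lysosome differed in both directions. The lysosome degrades proteins, glycans and lipids, Cln7 is a lysosomal membrane protein whose human counterpart is lost in a childhood neurodegenerative disease, and the Npc2 proteins bind sterols for export from the lysosome. Of 37 lysosomal and Niemann-Pick type C genes tested, 2 rose, 8 fell and 27 did not pass, where 0.658% of all genes rose and 2.01% fell. The median difference was -0.13, against 0.02 over all 9419 genes. This list was drawn up after its members were seen among the lowest and highest genes, so its counts describe it and support nothing further. Its members other than Cln7, GILT2 and Idua are named after their values were seen.

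Cln7 had 50.7 and 96.7 on standard, 90.5 and 114.1 on tomato and 97.1 and 93.9 on ethanol medium in line 380, against 430.9 to 1326 in the other lines. Its difference was -3.03 (SE 0.26; limma adjusted p = 2.8e-12). Lamp1, an abundant glycoprotein of the lysosomal membrane, gave 2080 to 3917 in line 380, with a median of 3252, against 8208 to 12471 in the other lines, with a median of 9587. The means of the other 7 lines spanned 0.20 on the log2 scale, whereas line 380 differed from them by -1.66 (SE 0.12; limma adjusted p = 4.3e-15). Both genes passed the fit on line means too, at a limma adjusted p of 6.4e-05 for Cln7 and 0.00027 for Lamp1.

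Further lysosomal deficits left the groups apart on all 3 media. Npc2a had 1017 to 1704 in line 380 and 2363 to 4406 in the other lines, a difference of -1.23 (SE 0.14; limma adjusted p = 8.7e-09). CREG, a glycoprotein of the endosome and lysosome, had 530.5 to 687.4 in line 380 and 845.2 to 2487 in the others (-1.31, SE 0.18). Npc2d differed by -2.09 (SE 0.36), and Hexo2, a hexosaminidase that trims glycans, by -0.76 (SE 0.13). All 4 passed the test without the 4 arrays of lowest muscle transcripts, and none of the 4 passed on the 8 line means, where Npc2a came nearest with a limma adjusted p of 0.065. Npc2b at -1.11 and GILT3 at -1.0 passed with all arrays but overlapped with other lines. Neither passed without those 4 arrays, or on the 8 line means, at a limma adjusted p of 0.12 and 0.20. The other named list members that rose were GILT2 and Idua.

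**Figure D3:**
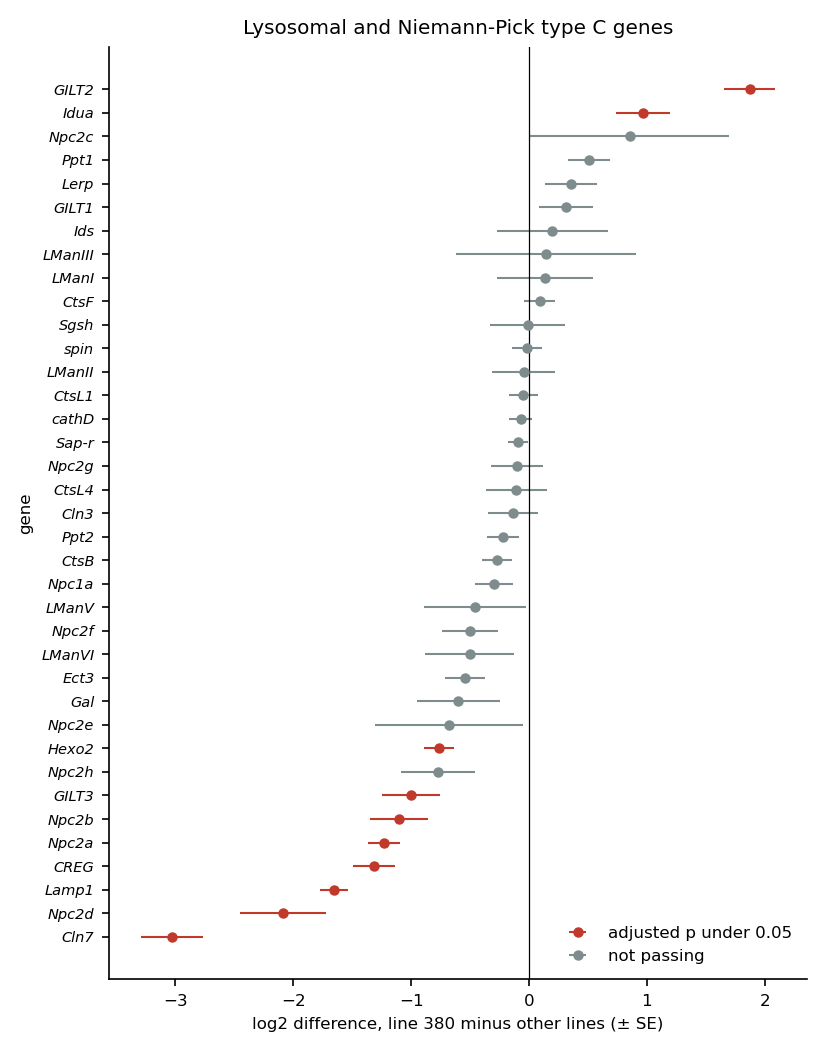
Log2 difference, line 380 minus the other lines, with its SE (horizontal axis) for the 37 tested lysosomal and Niemann-Pick type C genes, ordered by size, with genes past the adjusted p of 0.05 in red. GILT2 and Idua are higher and 8 genes are lower, from Hexo2 at -0.76 to Cln7 at -3.03.

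The 15 genes with the largest excess among those called and highest on all 3 media differed by less, 0.60 to 1.87 on the log2 scale. GILT2 led them. It is a homologue of the lysosomal thiol reductase that opens disulphide bonds of proteins during their breakdown. Its signals were 3530 and 5362 on standard, 7785 and 7618 on tomato and 4228 and 4332 on ethanol medium in line 380, against 900.2 to 2438 with a median of 1428 in the other lines. Every array of line 380 was above every other array, by a log2 difference of 1.87 (SE 0.22; limma adjusted p = 1.6e-08, and 0.015 on the line means). GILT2 lies between GILT3 and eIF3d1 in the RefSeq gene order of chromosome arm 3R, and all 3 were called, GILT3 at -1.0 and eIF3d1, a subunit of translation initiation factor 3, at 0.60 (SE 0.11). Among the 250 called genes with a place in that order there were 11 pairs of direct neighbours, of which 9 shared a direction. Of all 251 called genes 189 were lower, so many pairs would share a direction in any case. No such count was made over all genes, so grouping along the chromosome was not tested.

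SWIP, a subunit of the WASH complex, which branches actin on endosomes, had 354.2 and 300.5 on standard, 294.6 and 284.5 on tomato and 362.6 and 323.7 on ethanol medium in line 380, against 54.5 to 184.0 in the other lines. The difference was 1.56 (SE 0.28; limma adjusted p = 0.00028, and 0.043 on the line means) and was nearly the same on the 3 media, 1.51, 1.54 and 1.62. CG9667 had 362.6 to 732.0 in line 380 and 110.1 to 291.2 in the others, a difference of 1.22 (SE 0.22; limma adjusted p = 0.00019, and 0.024 on the line means). GILT2, SWIP and CG9667 were the 3 of these 15 that passed on the line means. nom had 430.9 to 907.3 in line 380 and 147.2 to 365.4 in the other lines, a difference of 1.49 (SE 0.21). l(3)L1231 gave 1506 to 2193 in line 380 and 214.8 to 1539 in the others, so that it was apart within each medium but not over all arrays together.

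The other genes of the 15 have varied roles. HP1c, a heterochromatin protein 1, was 1.17 higher (SE 0.25), msl-1, a subunit of the male X-chromosome dosage compensation complex, 0.81 higher (SE 0.21), and Cap-H2, a condensin II subunit, 0.66 higher (SE 0.14). Art3, an arginine methyltransferase, was 1.01 higher (SE 0.29), and enc, which acts in egg chamber formation, 0.71 higher (SE 0.15). botv, a glycosyltransferase of heparan sulfate synthesis, at 1.03, Idua, the lysosomal iduronidase, at 0.97, CG2187 at 0.80 and RhoU, a small GTPase, at 0.76 complete the 15. With the 4 arrays of lowest muscle transcripts left out, GILT2, SWIP, CG9667, nom and eIF3d1 still passed, while the other 10 kept their sign and did not pass.

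**Figure D4:**
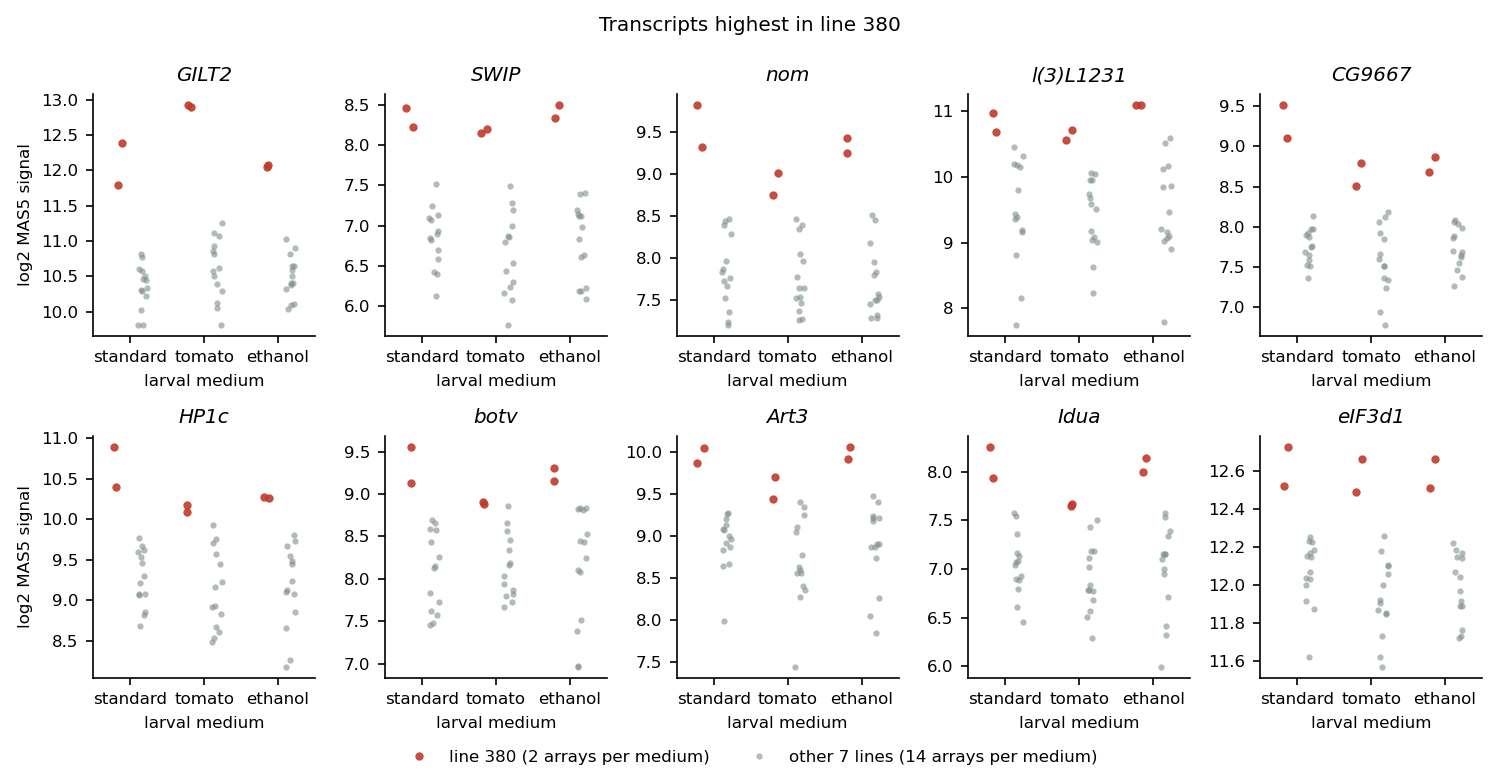
Log2 MAS5 signal (vertical axis) of 10 transcripts highest in line 380 on each larval medium, with the 2 arrays of line 380 in red at the left and the 14 arrays of the other 7 lines in grey at the right of each medium. The red points lie above all grey points of their medium, which the choice of genes required, with a wide gap for GILT2 and a narrow one for botv on tomato medium.

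Other gene families were read beside the shares over all genes, 0.658% higher and 2.01% lower. The rule for lists named 21 called members that are not among the genes at the extremes. On the 8 line means only COX7AL2 of these 21 passed. Each difference there is the same as in the main fit, so no sign could change. Without the 4 arrays of lowest muscle transcripts COX7AL2, Cyp4d2 and LysP passed, and all 21 kept their sign. Of 67 cytochrome P450 genes tested, 1 rose, 4 fell and 62 did not pass, with a median difference of -0.19. The 1 that rose was Cyp12d1-d, a mitochondrial P450, which had 1086 to 2370 in line 380, with a median of 1354, and 1.72 to 3459 in the other lines, with a median of 41.9. The groups overlapped because line 859 was higher still, with a mean log2 signal of 11.05, against 10.52 in line 380, and the remaining 6 lines lay at 2.61 to 5.70. The difference of 4.93 (SE 1.13; limma adjusted p = 0.0064) had an adjusted p of 0.26 on the line means. A near-identical copy of this gene exists, so the 2 copies cannot be told apart with certainty by the probes. Cyp4d2 differed by -1.20 (SE 0.21; limma adjusted p = 0.00014, and 0.11 on the line means). Cyp6g1, whose raised level is known for resistance to DDT, had a difference of -0.18 (SE 0.15; limma adjusted p = 0.39) with 13664 to 19751 in line 380 and 13898 to 26744.5 in the other lines.

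Of 23 tested UDP-glycosyltransferases, which attach sugars to small molecules for excretion, 2 fell and none rose, against 2.01% and 0.658% of all genes. Ugt37A2 differed by -1.78 (SE 0.47) and Ugt37D1 by -1.57 (SE 0.36), and on the line means the limma adjusted p was 0.23 and 0.17. Among 30 glutathione S-transferases none passed, and the median was 0.02. Among 12 carboxylesterases 1 fell, alpha-Est2, at -1.11 (SE 0.27), with a limma adjusted p of 0.17 on the line means. Among 6 genes of ethanol and acetaldehyde metabolism none passed, and Aldh-III, an aldehyde dehydrogenase, came nearest at -0.39 (SE 0.12; limma adjusted p = 0.062).

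Genes of smell, the sense tied to the behaviour in this study, gave no call. Of 30 odorant-binding protein genes tested none passed, and the median was -0.33. Obp28a was nearest at -1.11 (SE 0.35; limma adjusted p = 0.076). Only 1 of 57 odorant receptor genes on the array was bright enough to be tested, Orco, the co-receptor, at -0.32 (SE 0.31; limma adjusted p = 0.48). lush, an odorant-binding protein for alcohols and a pheromone, had 109.4 to 231.7 in line 380 and 79.1 to 429.4 in the others, a difference of -0.10 (SE 0.29; limma adjusted p = 0.81). No gustatory or ionotropic receptor gene was tested.

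Single members of other lists passed with all arrays, and none of those that follow passed on the line means, where their limma adjusted p was 0.10 to 0.33. LysP, a lysozyme, had a log2 difference of -1.78 (SE 0.38) and lectin-24A, a C-type lectin, one of -2.29 (SE 0.66). Among 28 tetraspanins, membrane organisers, 3 fell, Tsp42Eg at -1.30, Tsp42En at -1.04 and Tsp42Eq at -1.0, where 2.01% of all genes fell. Elovl7, of the fatty acid elongase family, differed by -1.11 (SE 0.26), Jheh2, a juvenile hormone epoxide hydrolase, by -0.65 (SE 0.19), and Prx3, a mitochondrial peroxiredoxin, by -0.35 (SE 0.10). Of 33 cuticle protein genes 1 fell, Cpr65Au, at -0.78 (SE 0.20). The median of the 33 was -0.77 with 25 below 0, and 1 other member passed on the line means alone. Spn47C, a serpin, was 0.98 higher (SE 0.29). Of the 44 lists with a tested member, 16 held a gene called lower, 2 held one called higher and 27 held none.

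Among the female and male lists, 2 genes passed, both lower, 1 of 40 accessory gland genes and 1 of 40 testis genes. Over all genes 2.01% were called lower, so these counts are near that share. None of 17 chorion and vitelline membrane genes, which build the eggshell, and none of 3 yolk protein genes passed, with medians of 0.08 and 0.03. The eggshell median was 0.51 with standard, -0.42 with tomato and 1.29 with ethanol medium. On ethanol medium the mean log2 signal of 9 eggshell genes was 12.03 and 12.66 in line 380. It was low on 1 array of line 158 (4.93) and both of line 379 (6.22 and 7.71). On tomato medium 1 array of line 380 was low (8.25), as was 1 each of lines 158, 362 and 774 (9.44, 4.30 and 9.25). Vm32E had a difference of -0.83 (SE 1.20), yellow-g of 0.70 (SE 1.42) and Yp1 of -0.15 (SE 0.19), and the adjusted p was over 0.5 for each. Of 40 accessory gland and seminal fluid genes 1 fell, Sfp33A3, at -1.44 (SE 0.30; limma adjusted p = 0.0024, and 0.20 on the line means), with line 362 only 0.33 above line 380, and the median of the list was 0.08. Of 40 testis and sperm genes 1 fell, djl, at -0.83 (SE 0.24; limma adjusted p = 0.047, and 0.13 on the line means), and the median was -0.37 with 35 of the 40 below 0. By medium the testis median was -0.75, 0.16 and -0.46 in the order above. None of 19 genes of the piRNA pathway, which silences transposons in the germ line, passed, but the values of all 19 were above 0, with a median of 0.61, and so were those of all 17 maternal patterning genes, with a median of 0.55, against 4844 of all 9419 genes above 0. The 2 lists share members. The mean log2 signal of the piRNA genes was 8.95 to 9.80 on the arrays of line 380 and 6.96 to 9.76 on the others, which overlap. By medium the piRNA median was 0.68, 0.39 and 0.76 in the order above. Within line 380 the signal was highest on the first standard array and both ethanol arrays (9.80, 9.54 and 9.52). These are its arrays of lowest muscle transcripts, and the part of this was not tested.

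Muscle and respiratory chain transcripts followed particular arrays of line 380, and some other lists had a like pattern by medium. Respiratory chain subunits make ATP in mitochondria and are dense in flight muscle. Of 72 tested respiratory chain genes none rose and 4 fell, where 0.658% of all genes rose and 2.01% fell. The values of all 72 were below 0 with a median of -0.51, against 48.6% of all genes below 0. By medium the median was -0.54 (standard), -0.05 (tomato) and -0.85 (ethanol), and with tomato 48 of the 72 were below 0. Over all genes the medians on the 3 media were -0.02, 0.07 and 0.07. Of 19 muscle contractile genes none passed in the fit to all arrays, with medians of -1.09, -0.02 and -1.44 on the 3 media in the same order. On the 8 line means 1 of the 19 passed, fln, at a limma adjusted p of 0.024. The pattern was not particular to these lists. In the same order the medians were -0.88, -0.07 and -1.16 for cuticle protein genes and -0.88, -0.14 and -0.47 for neuronal and synaptic genes. They were -0.82, 0.03 and -0.32 for phototransduction genes. Not every list had it, as glutathione S-transferases stood at -0.12, 0.06 and 0.01. The mean log2 signal of the 19 muscle genes was 10.84 and 12.09 (standard), 12.57 and 12.43 (tomato) and 11.04 and 10.92 (ethanol) in line 380, against 11.37 to 13.25 with a median of 12.47 in the other lines. The first standard array and both ethanol arrays were thus below all 42 others, while the second standard array and both tomato arrays lay within their range. The summed signal of 3 muscle markers ranged from 4631 to 38424 in line 380 and from 9594 to 60600.2 in the others. The part of muscle content in the differences of line 380 was not tested beyond the counts without these arrays.

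COX7AL2, a subunit of cytochrome c oxidase, was the respiratory gene that differed on all media. It had 1090 and 2559 on standard, 3032 and 2786 on tomato and 738.2 and 1006 on ethanol medium in line 380, against 5431 to 17009 with a median of 11721 in the other lines. The difference was -2.74 (SE 0.31; limma adjusted p = 9.0e-09, and 0.0046 on the line means). It was -2.01 (SE 0.28; limma adjusted p = 3.4e-06) without the 4 arrays of lowest muscle transcripts. COX7AL, a paralogue, differed by -1.07 (SE 0.26) and ND-B16.6, of complex I, by -0.92 (SE 0.23). On tomato medium they stood at -0.56 and -0.44. Neither passed on the line means, at a limma adjusted p of 0.063 and 0.081, or without the 4 arrays of lowest muscle transcripts, at 0.46 and 0.69.

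**Figure D5:**
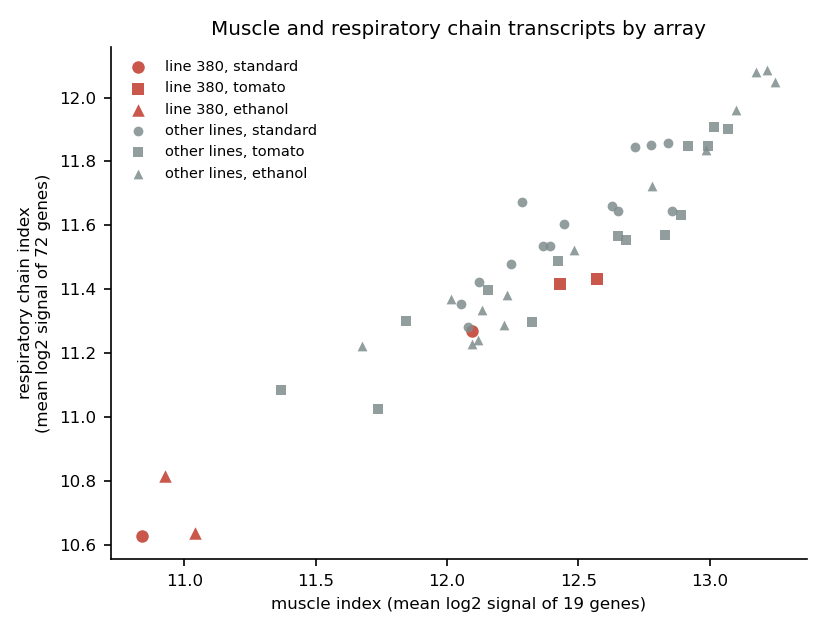
Mean log2 signal of 72 respiratory chain genes (vertical axis) against that of 19 muscle contractile genes (horizontal axis) on each of the 48 arrays, with line 380 in red and the other lines in grey and a marker shape for each medium. The first standard array and both ethanol arrays of line 380 lie alone at the lower left, below 11.1 on the horizontal axis.

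The difference between line 380 and the others varied with medium for 13 probe sets (limma F-test of the line by medium terms, 0.115% of those tested), 12 of which carry 1 gene symbol. Most were low in line 380 on ethanol and near the other lines on tomato medium. Within line 380 both tomato arrays have a hyphen in their titles and the other 4 arrays have spaces. Medium and a batch that goes with title style thus cannot be told apart within this line. fln, the flightin of the flight muscle filament, had 1971 and 10323 on standard, 15137 and 15644 on tomato and 1575 and 1278 on ethanol medium in line 380, against 4455 to 25473 in the other lines. Its differences were -1.72, 0.14 and -3.39 in that order (limma adjusted p = 0.0072). Scp1, a sarcoplasmic calcium-binding protein, had differences of -0.54, -0.01 and -2.09 (limma adjusted p = 0.00026), and CG7203 had -0.74, 0.35 and -4.04 (limma adjusted p = 1.1e-05). CG13026 had -1.02, 0.34 and -4.46 and Nplp3, a neuropeptide-like precursor, -1.04, 0.44 and -3.27. The same arrays carried the low muscle signals given above, and on standard medium the 2 arrays differed widely.

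The remaining genes with such a call, beside Acbp3 and CG2772, are named after their values were seen. Act88F, the actin of flight muscle, had differences of -1.27, 0.29 and -2.99 on standard, tomato and ethanol medium. Acp65Aa, an adult cuticle protein, had 103.5 and 1200.1 on standard, 5963 and 3183 on tomato and 27.4 and 23.2 on ethanol medium in line 380, against 264.1 to 14213 in the others. CG7214 ran the same way at -1.88, 0.29 and -6.13. Vha16-3, a proton pump subunit, stood at -2.0, 0.32 and -1.19. CG5767 went with standard and tomato instead, at -2.10, -1.75 and -0.03. Acbp3 stood at -5.29, -5.41 and -8.38 and CG2772 at -3.32, -5.74 and -3.81, so that both were far below the other lines on every medium and differed only in how far.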

How the data were processed

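The 48 arrays hold RNA of whole flies from 8 lines and 3 larval media, 2 arrays for each of the 24 combinations. The deposited numbers are linear signal intensities from MAS5, per the submitters' processing notes, and no version is given in the sources used here. Tested on the values, each array was scaled to a trimmed mean near 500. MAS5 subtracts mismatch from perfect-match probes, which makes weak signals, and folds of them, unreliable. No detection calls were used. The number of arrays limits the precision.

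Signals under 1 were raised to 1 before log2 was taken. Of 18952 probe sets, 183 controls were left out and the 60% of the other 18769 with the highest mean were kept, 11261 in all. A symbol came from the platform table where it gave 1 (13647 probe sets; 402 had several and 4720 none), updated through RefSeq gene numbers (13544 matched; assembly Release 6 plus ISO1 MT, used for names and neighbours only). A gene is represented by its brightest probe set. The fit was limma 3.58.1 in R 4.3.3 with medium and line 380 as terms, line as a random block (correlation 0.21) and an intensity trend, and 44 residual degrees of freedom. That 1 correlation is shared by all probe sets and understates the error where the other lines differ strongly. The 44 degrees of freedom count arrays, though the contrast is of 1 line with 7. The fit on 8 line means (6 residual degrees of freedom) is therefore given beside the main counts and the named calls that it ends, singly or by group. It also called some probe sets that the main fit did not. On simulated data the fit with the random block made more false calls than its threshold allows, and the fit on line means did not.

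The members, the lists and the tests were chosen with earlier results of these data known. The rule named the 15 largest differences each way among genes called and beyond all other arrays on all 3 media, up to 3 called members of each list (otherwise the 1 nearest), the 5 genes with the smallest p for medium, and Cyp6g1, Orco, lush, yellow-g, Yp1 and MtnD (MtnD: -1.30, SE 0.67, limma adjusted p = 0.25). Titles of 33 arrays separate their parts with spaces and 15 use a hyphen, as both tomato arrays of line 380 do; this spelling was tried as a batch. Alternatives were other normalisations, filters, a pseudocount of 16, other models, single media, and leaving out lines or arrays. Array numbers shared by groups were not treated as pairs. Over 13 pairs of line 380 with another line the correlation of deviations ran from -0.44 to 0.58, and 4 exceeded 0.1. The check covered standard and ethanol medium only and cannot exclude pairing.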

Additional observations from a re-analysis of the deposited data

Results flagged for a closer look

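Among the 6 arrays of line 380, 2 measures had 1 array far from the other 5. The eggshell index of the first tomato array was 8.25, and the median signal of the first standard array was 85.9. The same check over the 64 genes tested for it found 6 log2 signals; chance flags about 1 in 20 groups. The first standard array was the low one for CG6908 (6.17), Spn47C (7.82), Cln7 (5.66), alpha-Est2 (7.07) and Tsp42Eq (7.16), and the second standard array was the high one for Npc2d (8.99). The part of the low array median in these values was not tested.

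The difference between line 380 and the other lines varied with medium for 12 named genes by limma's F-test. Title style goes with tomato medium within line 380, as given above. The adjusted p was 1.1e-05 for CG7203, 0.00026 for Scp1, 0.0038 for Acbp3, 0.0052 for CG13026 and for Nplp3, 0.0072 for fln, 0.0095 for CG7214, 0.016 for Act88F and for CG5767, 0.017 for Acp65Aa, 0.039 for Vha16-3 and 0.041 for CG2772. On ethanol medium both arrays of line 380, and on standard medium 1 of 2, had muscle indices below all arrays of the other lines; the part of this in the 12 genes was not tested.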

How the results depend on the processing

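All 315 differing probe sets kept their sign in each alternative that tested them. In several, such as the line means or no line block, the difference equals the main one and could not change sign. The rest reuse arrays of the main fit, so the shared signs are no independent support. The count was 274 with quantile normalisation and 274 with median centring, 296 with a pseudocount, 303 with title style as a term and 300 to 406 with 1 other line left out. Median centring moved the median difference to 0.17 and the split to 101 higher and 173 lower (63.1% lower, against 71.1%), and with the eggshell index as a covariate 57.7% of 362 were lower. The count was 523 without the filter, 475 in arrays titled with spaces, 3844 without the line block and 5614 with lines as fixed terms, and the last 2 leave out or remove the variation among lines. It was 42 on line means, 30 in hyphen-titled tomato arrays, 335 in the standard medium alone, 23 with tomato and 53 with ethanol alone, 125 with the muscle index as a covariate and 84 without the 4 arrays of lowest muscle index. Leaving out 1 array of line 380 gave 174 to 387; the 174 were without the first standard array. Array numbers were not treated as pairs, and with number as a replicate block 311 were called.

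Probe sets highest or lowest in line 380 on all 3 media numbered 104, or 107 to 151 with 1 array of line 380 left out, 985 in space-titled arrays (2 media for line 380), 158 without arrays of low eggshell index and 176 without those of low muscle index, counts that rise because fewer arrays are compared. With median centring they were 76, 17 high and 59 low, 52 of them shared. Probe sets whose difference varied with medium numbered 13, or 29 with quantile normalisation, 25 with the eggshell index, 8 without the line block, 11 with the replicate block and 177 with the muscle index; the cause was not tested. The eggshell exclusion and both muscle alternatives were chosen after seeing the data. No called value of a named gene changed sign, with the limit given above for the 315 probe sets. Weak signals limit the size of the folds of the 9 lowest genes under a signal of 100; with the pseudocount of 16 Cyp6a18 moved to -4.30.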

Other observations

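Other called genes, chosen here after their values were seen, included regulators outside the lists. E(z) and escl, subunits of the Polycomb repressive complex that methylates histone H3, were both higher in line 380. E(z) had 401.1 to 991.6 in line 380 and 125.3 to 780.2 in the other lines, a difference of 1.24 (SE 0.33; limma adjusted p = 0.029), and escl had 176.3 to 575.0 and 29.1 to 291.5, a difference of 1.66 (SE 0.46; limma adjusted p = 0.033). The ranges overlap, and neither passed without the first standard array, at adjusted p of 0.10 and 0.13 by limma. Neither passed on the 8 line means, at a limma adjusted p of 0.18 and 0.098.

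cnc, the homologue of the stress response factor Nrf2, had 410.0 to 957.5 in line 380 and 666.4 to 3455 in the other lines, a difference of -1.49 (SE 0.32; limma adjusted p = 0.0032), and line 774 was nearly as low. mag, a lipase of the gut, had 749.4 to 1321 in line 380 and 1106 to 6528 in the others, a difference of -1.59 (SE 0.29; limma adjusted p = 0.00037). Nost, a membrane-bending adaptor, was 1.44 higher (SE 0.28; limma adjusted p = 0.00091, and 0.024 on the line means). On the line means cnc had an adjusted p of 0.23 and mag of 0.17.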
